A study of Homo sapiens with 12 samples.

Results

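The genes described here are the HSP70 chaperones of the cytosol, nucleus and mitochondria together with their HSP110 relatives. They were taken from the count table by gene name, namely HSPA1A, HSPA1B, HSPA1L, HSPA2, HSPA4, HSPA4L, HSPA6, HSPA8, HSPA9 and HSPH1, and were 10 of the 58735 genes listed. They were followed by RNA-seq in K562 cells, an erythroleukemia line of human origin driven by the fusion kinase BCR-ABL1, so that every group shares this 1 line and its fusion. Cells first received DMSO, the solvent, or 0.1 μM nilotinib, a kinase inhibitor whose target in leukemia is BCR-ABL1, for 24 h. They were then collected without hemin (0 h, mock DMSO and mock nilotinib) or after 24 h with 50 μM hemin, the iron porphyrin that makes these cells produce hemoglobin (hemin DMSO and hemin nilotinib). Each of the 4 groups had 3 biological replicates. The methods give collection at 0 and 24 h, but not how long the mock cells had been cultured or kept in nilotinib. If they were collected when hemin was added to the others, hemin and the additional time in culture or in nilotinib cannot be told apart in comparisons of mock with hemin libraries.

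HSP70 proteins bind exposed hydrophobic stretches of other proteins and release them in cycles of ATP binding and hydrolysis. J-domain proteins bring clients and speed up hydrolysis, while HSP110 proteins and BAG-family proteins exchange ADP for ATP and so reset the cycle. Some members are made in every cell, such as HSPA8 in the cytosol and HSPA9 in mitochondria, and others, such as HSPA1A, HSPA1B and HSPA6, are switched on by heat shock factor HSF1 when proteins unfold. In maturing red cell precursors, nuclear HSP70 is known to shield GATA1, the main erythroid transcription factor, from cleavage by caspases, and hemin has long been used to induce HSP70 in K562 cells.

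Promoter sequence is shown for HSPA1A, HSPA1B and HSPA6, the members with the largest rise with hemin, and for HSPA8. These were picked because the heat-shock letters are placed differently among them, so they do not stand for all members that rose. HSF1 binds repeats of the letters GAA in alternating orientation. Windows of 250 bases before to 50 bases after each annotated start were searched on both strands in RefSeq sequence (GRCh38.p14), where all 10 members had a window. The letters of 3 alternating units, GAANNTTC followed by any 2 bases and then GAA, occurred in 0.49% of the 35116 windows of all genes and in those of 2 members, HSPA6 and HSPA8. The shorter letters GAANNTTC, which lie inside the longer element, occurred in 6.77% of all windows and in those of 5 members (HSPA1A, HSPA1B, HSPA1L, HSPA6 and HSPA8). HSPA1A and HSPA1L lie head to head with starts 260 bases apart, their windows share 241 bases, and they hold the same copy. The stretches below are written 5′ to 3′ on the strand of each gene, with GAANNTTC in capitals for HSPA1A and HSPA1B and the longer element, in either orientation, in capitals for HSPA6 and HSPA8. They are chr6:31815314-31815463 (plus strand) for HSPA1A, chr6:31827585-31827734 (plus) for HSPA1B, chr1:161524390-161524539 (plus) for HSPA6, and chr11:123062346-123062374 and chr11:123062171-123062199 (minus) for HSPA8.
HSPA1A: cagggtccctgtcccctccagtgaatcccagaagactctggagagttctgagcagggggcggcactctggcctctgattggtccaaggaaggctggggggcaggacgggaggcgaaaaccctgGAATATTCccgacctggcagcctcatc
HSPA1B: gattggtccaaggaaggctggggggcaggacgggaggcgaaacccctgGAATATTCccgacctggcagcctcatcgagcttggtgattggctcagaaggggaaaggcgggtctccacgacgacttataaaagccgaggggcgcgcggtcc
HSPA6: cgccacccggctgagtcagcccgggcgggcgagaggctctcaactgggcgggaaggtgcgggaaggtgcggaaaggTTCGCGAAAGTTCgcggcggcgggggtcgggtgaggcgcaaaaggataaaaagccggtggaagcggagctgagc
HSPA8, farther copy: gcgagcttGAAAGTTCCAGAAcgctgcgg
HSPA8, nearer copy: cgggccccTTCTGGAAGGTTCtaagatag

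The capitals begin 106 bases before the RefSeq start in HSPA1A, 105 in HSPA1B, 74 in HSPA6, and 230 and 55 in HSPA8. The other order of the shorter letters, TTCNNGAA, was found in 7.74% of all windows and in those of 4 members (HSPA4L, HSPA6, HSPA8 and HSPA9), again partly inside the longer element. None of these heat-shock letters was found in HSPA2, HSPA4 or HSPH1, although HSPH1 rose 109-fold with hemin. CCAAT was found in 34.6% of all windows and 6 members, and TATAAA in 11.5% and 4 members. The CCAAT and TATAAA matches of HSPA1L are those of HSPA1A, read on the other strand in the shared bases. TGACNNNGC, letters bound by NRF2 and BACH1, was found in 13.3% and 2 members, and AGATAA, letters bound by erythroid zinc finger factors, in 10.3% and no member. These are matches of letters in a window and not measured sites, and the shorter pairs were added to the search after the sequences had been seen.

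The libraries held 33457078 to 50506990 counts on genes, and 20821 genes passed the filter on low counts and were tested. All 10 members passed it, but HSPA2, a member enriched in testis, passed only through hemin DMSO, with 11, 30 and 26 reads there against at most 7 in any other library. It is therefore given by its counts alone and left out of what follows: its 4, 0 and 0 reads in mock DMSO, 1, 0 and 1 in mock nilotinib and 0, 0 and 7 in hemin nilotinib are too few for a fold. All 9 erythroid and K562 markers examined passed the filter, and their summed level was 1539 to 2066 CPM (counts relative to the TMM-scaled library total) in mock DMSO, 3994 to 5451 in mock nilotinib, 1124 to 1205 in hemin DMSO and 4245 to 4983 in hemin nilotinib. The 3 T cell, 3 B cell, 3 monocyte and 3 fibroblast markers summed to at most 13.4, 15.6, 43.5 and 33.4 CPM in any library, with MS4A1 at 0 or 1 read and CD2 at 2 or fewer. The 3 epithelial markers summed to 374 to 428 CPM in mock DMSO, 136 to 165 in mock nilotinib, 535 to 798 in hemin DMSO and 107 to 129 in hemin nilotinib, nearly all of it KRT8 and EPCAM, and CDH1 stayed at 0.836 CPM or less. The marker sums thus moved with the groups, and their part in the results below was not tested. In bulk RNA, fewer responding cells and less RNA per cell cannot be told apart.

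Reads of HSPA1A and HSPA1B are partly interchangeable. The coding sequences of HSPA1A (chr6:31815464-31817946, plus strand, GRCh38) and HSPA1B (chr6:31827735-31830255, plus strand, 1 exon) were 99.79% identical. Of the 150-base words of the HSPA1A transcripts 63.2% also occurred in HSPA1B, and 66.0% of those of HSPA1B occurred in HSPA1A. HSPA1B also shares 36.5% of its exon length with AL671762.1 on the same strand, and 27.34% of the words of HSPA1A and 32.55% of those of HSPA1B occurred in that gene. The split between both genes is therefore uncertain, and their sum is given where it matters. How reads that fit several genes were counted is not given in the sources used here. If such reads were dropped, the sum, the shares of the family and the ranks are too low as well. HSPA6 (chr1:161524540-161526910, plus strand, 1 exon) shared 15.2% of its words with HSPA7, a nearby pseudogene at chr1:161606291-161608217. HSPA1L, HSPA4, HSPA8, HSPA9 and HSPH1 shared no words with another gene. By exon length on the same strand, 3.61% of HSPA8 overlapped SNORD14C and SNORD14D, and 1.09% of HSPA9 overlapped SNORD63 and RF00154. HSPA1A was 80.5% identical to HSPA6 in coding sequence, 73.7% to HSPA8, 52.9% to HSPA9 and 42.8% to HSPH1. Against the opposite strand, 6.19% of the exon length of HSPA4L overlapped other genes, and the sources used here do not give whether counting used strand.

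Without either agent, the constitutive members made up most of the family. Per kilobase of gene length, HSPA8 stood at 125 ± 17.8 CPM (SD, n = 3), 36.8% of the summed level of the 10 genes, and HSPA9 at 88.5 ± 10.7, 26.0%. HSPA4, an HSP110 exchange factor, followed at 46.1 ± 5.41, then HSPA1A at 40.2 ± 1.02 and HSPA1B at 27.7 ± 0.924. The remaining genes were below 4.5 CPM per kilobase. The 10 genes together took 0.181%, 0.193% and 0.209% of all counts in the 3 mock DMSO libraries.

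**Figure D1:**
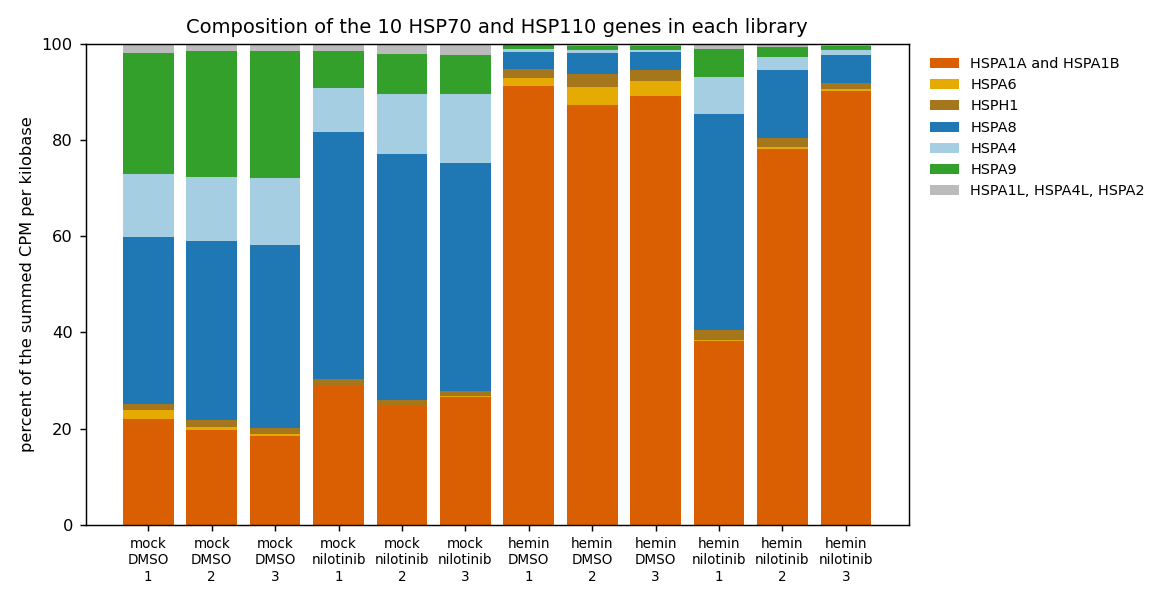
Share of each gene in the summed level (CPM per kilobase) of the 10 HSP70 and HSP110 genes, in percent, for each of the 12 libraries, with HSPA1A and HSPA1B added up. The pair made up 18.44 to 22.04% in mock DMSO, 24.7 to 28.8% in mock nilotinib and 87.4 to 91.3% in hemin DMSO, but 38.3%, 78.2% and 90.3% in the 3 hemin nilotinib libraries.

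Hemin without nilotinib raised all the members with enough reads, from less than a doubling of HSPA9 to a rise of more than 300-fold in HSPA1A, and turned the family over from constitutive to inducible. All 9 were called higher, where 53.6% of the tested genes were called, 25.7% higher and 27.8% lower, and none of the 9 overlapped between groups, where 62.7% of genes did not. The 9 folds ranged from 0.866 to 8.255 on the log2 scale against a median of -0.047 over all genes tested. The 10 genes took 5.04%, 5.30% and 5.22% of all counts in hemin DMSO, and HSPA1A with HSPA1B alone took 4.16%, 4.07% and 4.17%.

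HSPA1A, the main inducible cytosolic HSP70, stood at 102, 96.9 and 101 CPM in mock DMSO and at 30098, 32563 and 28816 CPM in hemin DMSO. It moved from rank 2145 among all genes by mean CPM to rank 1. The fold was 306 (log2 8.26, SE 0.81, edgeR quasi-likelihood, adjusted p = 6.21e-07). HSPA1B, which encodes nearly the same protein, stood at 67.4, 72.0 and 70.4 CPM in mock DMSO and at 15947, 15706 and 15488 CPM in hemin DMSO, a 225-fold rise (log2 7.81, SE 0.81, edgeR adjusted p = 1.14e-06) that took it to rank 3. In both genes the 3 hemin DMSO libraries lay within 1.13-fold of each other, far above the mock libraries. HSPA1A had 1.35 to 1.51 times the reads of HSPA1B in mock DMSO and 1.86 to 2.07 times in hemin DMSO.

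HSPA6, an inducible cytosolic HSP70 known for its near absence from unstressed cells, stood at 12.5, 6.53 and 4.42 CPM in mock DMSO and at 759, 1902 and 1409.9 CPM in hemin DMSO. The 173-fold rise (log2 7.43, SE 0.86, edgeR adjusted p = 3.31e-06) was the third largest of the family, and the hemin DMSO libraries differed by 2.50-fold among themselves. HSPA7, with which it shares sequence, did not follow: it stood at 12.8 to 29.7 CPM in mock DMSO and 16.8 to 38.3 CPM in hemin DMSO, so that the groups overlapped. HSPH1, the stress-inducible HSP110, stood at 37.2, 36.6 and 38.2 CPM in mock DMSO and at 3192, 5258 and 3757 CPM in hemin DMSO, 109-fold higher (log2 6.77, SE 0.52, edgeR adjusted p = 4.96e-08). It rose to rank 15 of all genes by mean CPM, just before HSPA8.

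The other exchange factors rose less. HSPA4L, an HSP110 found mainly in testis and brain, stood at 47.3, 41.2 and 44.4 CPM in mock DMSO and at 392, 497 and 485 CPM in hemin DMSO, a 10.3-fold rise (log2 3.37, SE 0.29, edgeR adjusted p = 1.48e-07). HSPA4 stood at 209, 238 and 265 CPM in mock DMSO and at 616, 666 and 496 CPM in hemin DMSO, a 2.5-fold rise (log2 1.32, SE 0.14, edgeR adjusted p = 1.7e-06). The 3 exchange factors thus started in the order HSPA4, HSPH1 and HSPA4L per kilobase (46.1, 4.45 and 3.81 CPM) and ended in the order HSPH1, HSPA4 and HSPA4L (485, 115 and 39.4 CPM).

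HSPA8, the constitutive cytosolic HSP70, stood at 515, 622 and 686 CPM in mock DMSO and at 3437, 4672 and 3635 CPM in hemin DMSO. The rise was 6.44-fold (log2 2.69, SE 0.22, edgeR adjusted p = 8.66e-08), although its share of the family per kilobase went from 36.8% to 3.89%. HSPA9, the mitochondrial HSP70 that pulls proteins through the inner membrane and serves iron-sulfur cluster assembly, stood at 636.5, 744 and 812 CPM in mock DMSO and at 1376, 1384 and 1237 CPM in hemin DMSO. Its 1.82-fold rise (log2 0.87, SE 0.17, edgeR adjusted p = 0.000542) was the smallest of the 9. HSPA1L, a relative of HSPA1A that is made mainly in testis and lies beside it, stood at 4.35, 4.39 and 3.11 CPM in mock DMSO and at 62.0, 143 and 141 CPM in hemin DMSO (log2 4.87, SE 0.46, edgeR adjusted p = 3.81e-07). Even so it reached only 45.3 ± 18.1 CPM per kilobase (SD, n = 3) in hemin DMSO, where HSPA1A reached 12280 ± 767.

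**Figure D2:**
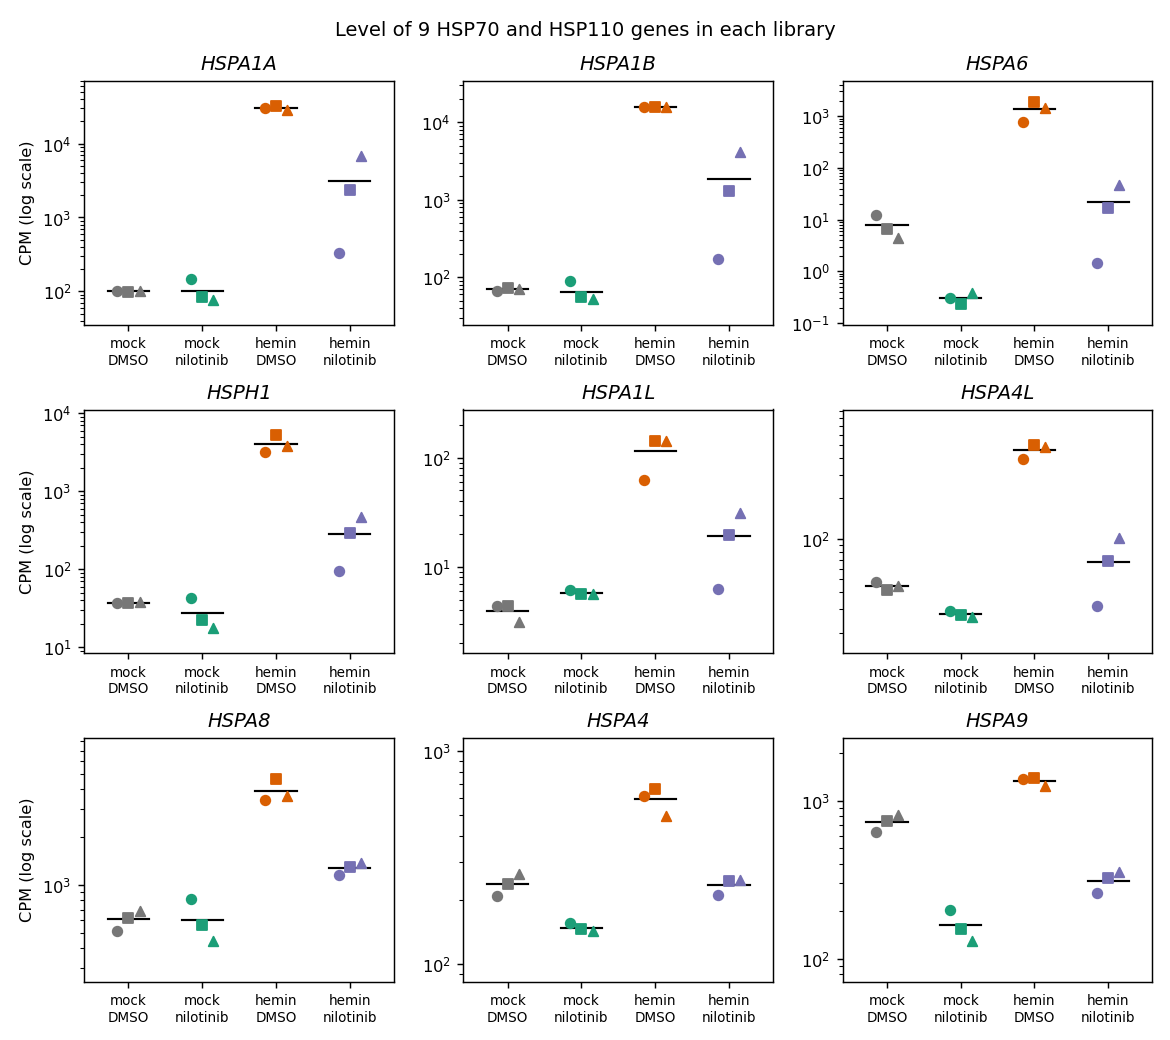
Level in each library, in CPM on log axes whose range differs between genes, of the 9 members with enough reads, by group, with circles, squares and triangles for replicates 1, 2 and 3 and a line at the mean of 3 libraries. Hemin DMSO is highest in all 9, and the hemin nilotinib libraries lie close together for HSPA8, HSPA4 and HSPA9 but 20.4 to 33.3-fold apart for HSPA1A, HSPA1B and HSPA6.

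In cells given hemin, nilotinib lowered all members with enough reads. All 9 were called lower, where 64.2% of the tested genes were called, 32.4% higher and 31.8% lower, and none overlapped between hemin nilotinib and hemin DMSO, where 63.5% of genes did not. The 9 folds with enough reads ranged from -5.946 to -1.338 on the log2 scale, against a median of 0.022 over all genes. This comparison shares its hemin DMSO libraries with the one before. The 10 genes took 0.223%, 0.601% and 1.41% of all counts in hemin nilotinib.

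Among the inducible members, HSPA1A stood at 332, 2384 and 6788 CPM in hemin nilotinib. These libraries were 1.09%, 7.82% and 22.3% of the hemin DMSO mean, so all lay far below hemin DMSO, and they differed 20.4-fold among themselves. The fitted log2 fold change was -3.27 (SE 0.64, edgeR adjusted p = 0.00034), and it was -4.48 without hemin nilotinib replicate 3. HSPA1B stood at 174, 1283 and 4099 CPM (log2 -3.08, SE 0.65, edgeR adjusted p = 0.000627) and at -4.42 without the same library. HSPA6 stood at 1.44, 16.5 and 47.8 CPM, which is 0.106%, 1.22% and 3.52% of the hemin DMSO mean. With a log2 fold change of -5.95 (SE 0.80, edgeR adjusted p = 8.39e-06) it fell most of the family, and without hemin nilotinib replicate 3 the value was -7.23. HSPH1 stood at 93.999, 292 and 474 CPM, 2.31%, 7.19% and 11.6% of the hemin DMSO mean (log2 -3.83, SE 0.45, edgeR adjusted p = 1.93e-06). HSPA1L and HSPA4L fell by 2.59 (SE 0.41) and 2.77 (SE 0.28) on the log2 scale, with levels of 6.27, 19.7 and 31.2 CPM for HSPA1L and 31.7, 68.7 and 102 CPM for HSPA4L.

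The members with the highest level in mock DMSO fell less and more evenly. HSPA8 stood at 1151, 1302 and 1369 CPM, 29.4%, 33.3% and 35% of the hemin DMSO mean (log2 -1.62, SE 0.21, edgeR adjusted p = 5.3e-06). HSPA4 stood at 210.2, 246 and 247 CPM, 35.5%, 41.6% and 41.6% of that mean (log2 -1.34, SE 0.14, edgeR adjusted p = 6.87e-07). HSPA9 stood at 261, 323 and 351 CPM, 19.6%, 24.2% and 26.4% of it (log2 -2.10, SE 0.18, edgeR adjusted p = 5.92e-08). In these 3 genes the hemin nilotinib libraries differed by 1.17 to 1.34-fold. That is near the median of 1.31-fold over the 9452 genes with at least 10 CPM on average, of which 7 (0.0741%) differed by more than 20-fold in this group.

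**Figure D3:**
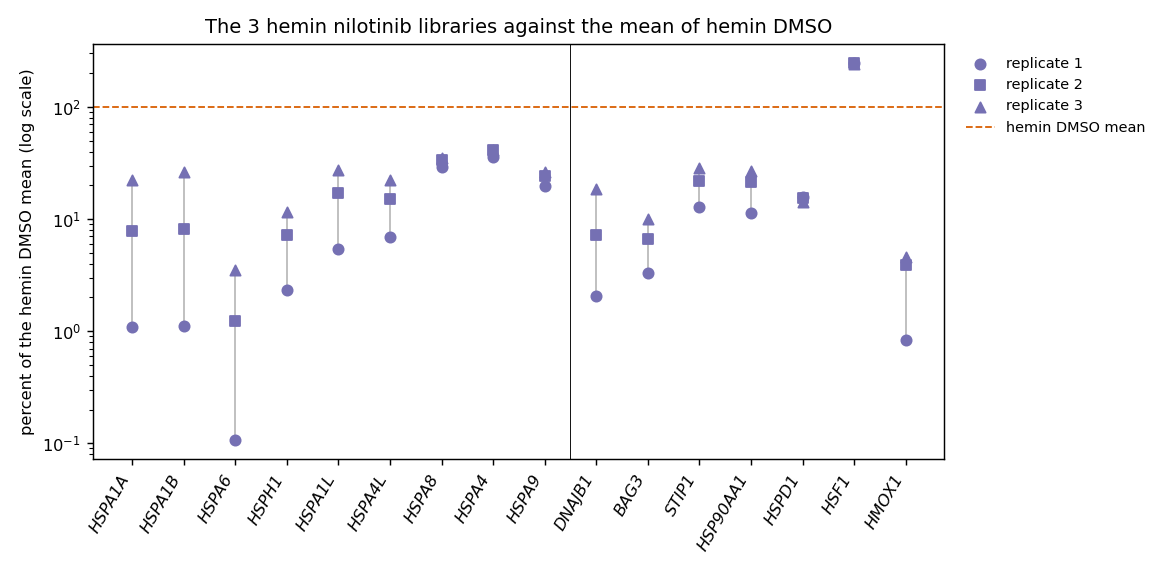
Level of each hemin nilotinib library as percent of the hemin DMSO mean (dashed line, 100%) on a log axis, for 9 members (left of the line) and 7 other heat-shock, partner and hemin-response genes (right). HSPA1A lies at 1.09, 7.82 and 22.3%, DNAJB1 at 2.04, 7.2 and 18.4% and HSPA8 at 29.4, 33.3 and 35%, while HSF1 lies at 246, 247 and 240%.

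Replicate 1 of hemin nilotinib was the lowest and replicate 3 the highest in each of the 9 members. Replicate 1 also had the lowest levels of DNAJB1 (136 CPM, against 481 and 1227), BAG3 (50.8 CPM, against 102 and 153) and HMOX1 (0.402 CPM, against 1.89 and 2.20), but not of HSF1 (181 CPM, against 181 and 176). Its total of 35333809 counts was close to the 35989983 of replicate 2, and the share of counts on mitochondrially encoded genes was 8.83%, 7.03% and 5.20% in replicates 1, 2 and 3, against 1.45 to 2.88% in hemin DMSO. The part of these differences in the results was not tested.

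Without hemin, nilotinib lowered HSPA9, HSPA6, HSPA4 and HSPA4L, while HSPA1A, HSPA1B, HSPA8, HSPH1 and HSPA1L did not pass the test. Thus 4 of 9 members were called, all lower, where 42.5% of genes were called, 20.7% higher and 21.8% lower, so the share of members was close to that background. In 5 of 9 the libraries did not overlap, where 61% of genes did not. HSPA9 stood at 204, 155 and 129 CPM in mock nilotinib, against 636.5 to 812 in mock DMSO, with no overlap (log2 -2.17, SE 0.18, edgeR adjusted p = 1.01e-07). It lost its place as the second gene of the family per kilobase, with 7.92% of the summed level after 26.0%. HSPA4 stood at 156, 145 and 142 CPM, 0.62 of its mock DMSO level (log2 -0.68, SE 0.14, edgeR adjusted p = 0.000995).

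HSPA6, low to begin with, stood at 0.304, 0.233 and 0.375 CPM in mock nilotinib, which rests on 12, 8 and 13 reads, after 697, 274 and 230 reads in mock DMSO (log2 -4.67, SE 0.99, edgeR adjusted p = 0.00117). HSPA7 fell with it, from a mean of 20.7 to 1.14 CPM (log2 -4.18, SE 0.37, edgeR adjusted p = 2.08e-07). HSPA4L stood at 28.99, 26.95 and 25.98 CPM (log2 -0.70, SE 0.27, edgeR adjusted p = 0.0445), a call that was lost whichever of the 6 libraries was left out (adjusted p from 0.0648 to 0.089).

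HSPA1A stood at 147, 83.4 and 76.2 CPM in mock nilotinib, above and below the mock DMSO libraries, with a log2 difference of 0.04 (95% interval -1.22 to 1.29, edgeR adjusted p = 0.969). HSPA8 stood at 814, 560.4 and 443 CPM, likewise on both sides (log2 difference -0.01, 95% interval -0.44 to 0.43, edgeR adjusted p = 0.989). The intervals of HSPA1B (-1.38 to 1.19), HSPH1 (-1.29 to 0.44) and HSPA1L (-0.33 to 1.44) also held 0. Replicate 1 of mock nilotinib was the highest of its group in all members with enough reads except HSPA6. In HSPA1L all 3 mock nilotinib libraries (5.601 to 6.137 CPM) were above mock DMSO (3.11 to 4.39 CPM).

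Hemin still raised the family in cells given nilotinib. All 9 were called higher, where only 5.8% of genes were called, 3.52% higher and 2.28% lower, and the same 9 did not overlap between hemin nilotinib and mock nilotinib, where 23.3% of genes did not. HSPA1A was 31 times higher in hemin nilotinib than in mock nilotinib (log2 4.95, SE 0.70, edgeR adjusted p = 0.00132), and the log2 value was 3.72 without hemin nilotinib replicate 3. HSPA1B was 28.3 times higher (log2 4.82, SE 0.71, edgeR adjusted p = 0.00154) and stood at 3.46 without that library. HSPA6 was 71.6 times higher (log2 6.16, SE 0.98, edgeR adjusted p = 0.00283), or 4.86 on the log2 scale without it, and ranked 8th of 20821 genes by size of rise. This rise and rank rest on 12, 8 and 13 reads of HSPA6 in mock nilotinib. HSPH1 was 10.3 times higher (log2 3.37, SE 0.44, edgeR adjusted p = 0.001).

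Smaller rises in this comparison lost their calls when single libraries were left out. HSPA8 was 2.1 times higher (log2 1.07, SE 0.21, edgeR adjusted p = 0.00866), HSPA9 1.92 times (log2 0.94, SE 0.17, edgeR adjusted p = 0.00702), HSPA4 1.58 times (log2 0.66, SE 0.14, edgeR adjusted p = 0.0147), HSPA4L 2.47 times (log2 1.30, SE 0.27, edgeR adjusted p = 0.0129) and HSPA1L 3.29 times (log2 1.72, SE 0.41, edgeR adjusted p = 0.0242). All 5 calls were lost without mock nilotinib replicate 2 or without mock nilotinib replicate 3, when 4 members remained called. In the latter case the adjusted p values were 0.063 for HSPA8, 0.0591 for HSPA9, 0.0898 for HSPA4, 0.0637 for HSPA4L and 0.094 for HSPA1L. HSPA4 also lost its call without hemin nilotinib replicate 2 (adjusted p = 0.0788), and HSPA1L without hemin nilotinib replicate 2 or 3 or mock nilotinib replicate 1 (0.0751, 0.0869 and 0.0524). The labels give replicate numbers but state no pairing. Libraries of these 2 groups with the same number deviated together from their group means (r = 0.263, 0.199 and 0.254), so the number was also tried as a block. With this block in their 6 libraries alone HSPA1L (log2 1.48, edgeR adjusted p = 0.0673) and HSPA4L (log2 1.17, edgeR adjusted p = 0.0563) were no longer called. In a fit to these 6 libraries without the block 4 members kept an adjusted p under 0.05, HSPH1 (0.0443), HSPA4 (0.0478), HSPA1A and HSPA6 (both 0.0495), whereas HSPA1B (0.053), HSPA8 (0.0534), HSPA9 (0.0543), HSPA4L (0.094) and HSPA1L (0.1) did not. HSPA6 was also not called by limma on log2(FPKM + 1) (log2 2.50, adjusted p = 0.0753).

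**Figure D4:**
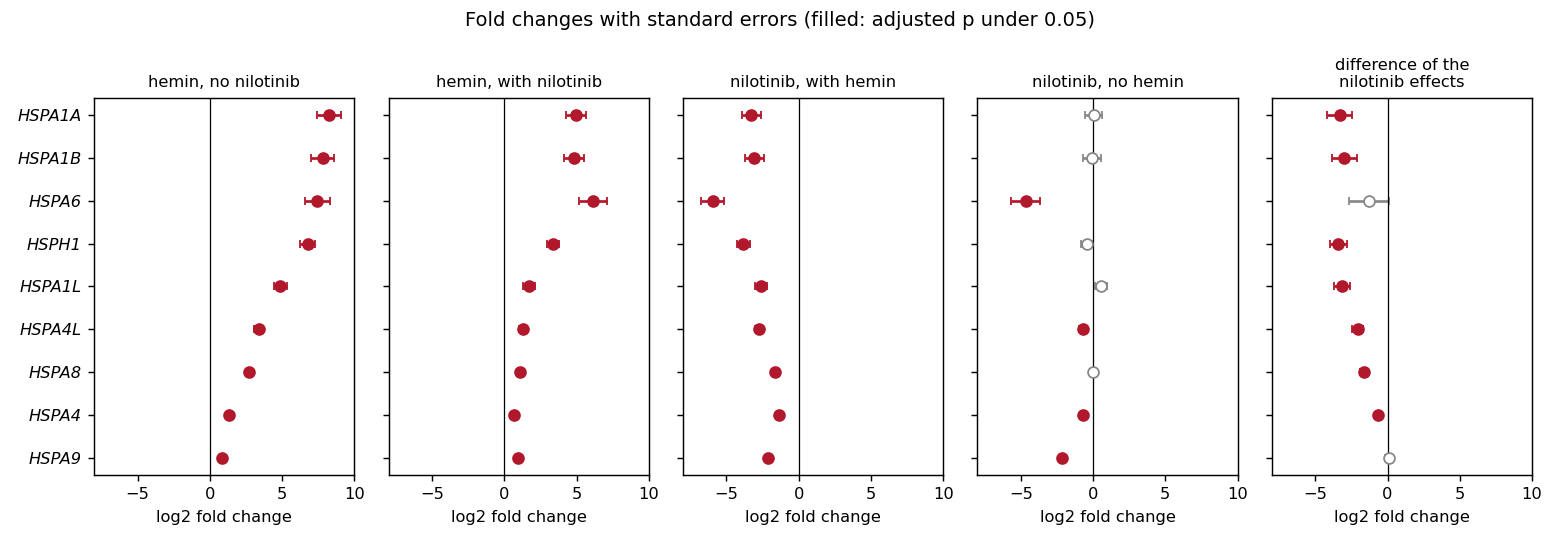
Log2 fold changes with standard errors of 9 members in the 4 comparisons of 1 agent and, at the right, the effect of nilotinib with hemin minus that without hemin. Filled points passed an adjusted p of 0.05; the rise with hemin spans 0.87 to 8.26 without nilotinib and 0.66 to 6.16 with it, and the difference at the right is not called for HSPA6 and HSPA9.

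Whether nilotinib acted differently with hemin than without was tested as an interaction. It was called for 7 of 9 members, all with a more negative effect of nilotinib under hemin, where 30.1% of genes were called, 17.1% with a more positive and 13% with a more negative effect. The difference was -3.40 (SE 0.59) for HSPH1, -3.30 (SE 0.86) for HSPA1A, -3.15 (SE 0.58) for HSPA1L, -2.99 (SE 0.87) for HSPA1B and -2.07 (SE 0.38) for HSPA4L on the log2 scale, with edgeR adjusted p from 0.00057 to 0.0171. It was -1.61 (SE 0.29, edgeR adjusted p = 0.00078) for HSPA8 and -0.66 (SE 0.20, edgeR adjusted p = 0.0209) for HSPA4. Without hemin nilotinib replicate 3 the difference was -4.49 for HSPA1A and -4.30 for HSPA1B. The HSPA4 call was lost when mock DMSO replicate 1 or 2 or mock nilotinib replicate 1 or 2 was left out (adjusted p from 0.052 to 0.0991).

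HSPA9 and HSPA6 had no call in this test. For HSPA9 the nilotinib effects were -2.17 without and -2.10 with hemin, and their difference was 0.07 with a 95% interval of -0.44 to 0.59 (edgeR adjusted p = 0.852). For HSPA6 they were -4.67 and -5.95, with a difference of -1.27 and a wide interval of -4.21 to 1.67 (edgeR adjusted p = 0.524).

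With both agents together, the members ended at different places relative to mock DMSO. HSPA1A (log2 4.99), HSPA1B (4.73), HSPH1 (2.94), HSPA1L (2.27) and HSPA8 (1.07) were called higher and HSPA9 (-1.23) lower, 6 of 9 members, where 46.6% of genes were called, 24.2% higher and 22.4% lower. The edgeR adjusted p values of the 6 were 2.75e-05 to 0.000533. Without hemin nilotinib replicate 3 the values were 3.73 for HSPA1A, 3.34 for HSPA1B, 1.68 for HSPA1L and 2.33 for HSPH1. HSPA4 differed by -0.02 (95% interval -0.32 to 0.28). HSPA4L differed by 0.60 (edgeR adjusted p = 0.0716) and HSPA6 by 1.49 (edgeR adjusted p = 0.0848), and both were called without hemin nilotinib replicate 1 (0.94 and 2.03) but stood at 0.14 and 0.16 without hemin nilotinib replicate 3 (adjusted p = 0.647 and 0.862). Nilotinib alone against hemin alone left all 9 lower, where 65.8% of genes were called, 32.5% higher and 33.4% lower, and none overlapped, where 70.2% did not. The values ran from -2.002 for HSPA4 to -12.11 for HSPA6, the largest fall of all 20821 genes. The HSPA6 value rests on 12, 8 and 13 reads in mock nilotinib and ranged from -12.395 to -8.905 over the alternatives.

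Ordered from the highest to the lowest group mean, hemin DMSO came first in all 9 members. HSPH1, HSPA1B, HSPA8, HSPA4L and HSPA6 then followed the order hemin nilotinib, mock DMSO and mock nilotinib, HSPA1A and HSPA1L the order hemin nilotinib, mock nilotinib and mock DMSO, and HSPA4 and HSPA9 the order mock DMSO, hemin nilotinib and mock nilotinib. The lowest neighbours did not differ in the test for HSPA1A, HSPA1B, HSPA1L, HSPA8 and HSPH1, nor did the middle ones for HSPA4, HSPA4L and HSPA6. HSPA9 was the member whose 4 groups all differed from their neighbours in the main fit. Its lowest step, hemin nilotinib over mock nilotinib, lost its call without mock nilotinib replicate 2 or 3 (edgeR adjusted p up to 0.0591). That step also lost its call with the libraries of the comparison alone.

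Partner genes were taken from lists chosen with earlier results known, and rose and fell are used here for an edgeR adjusted p under 0.05. For the counts in these lists, 25.7% of all tested genes were called higher and 27.8% lower with hemin without nilotinib. The shares were 32.4% and 31.8% with nilotinib under hemin and 20.7% and 21.8% with nilotinib without hemin. With hemin in nilotinib-treated cells they were 3.52% and 2.28%. List genes, unlike the members, were not followed through the alternatives or the removal of single libraries. Of 10 cytosolic J-domain genes, 7 were called higher and none lower with hemin without nilotinib (median log2 1.84, against -0.047 over all genes), and 1 was higher and 8 lower with nilotinib under hemin (median -1.86, against 0.022). DNAJB1, the main J-domain partner of the inducible HSP70s, rose from 81.8 to 6687 CPM with hemin (log2 6.35, SE 0.57) and was 614.9 CPM in hemin nilotinib (log2 -3.44 against hemin DMSO, SE 0.50). DNAJB4 (log2 5.59, SE 0.44) and DNAJB6 (3.58, SE 0.27), further class B J-domain proteins, rose with hemin too. DNAJB2 was an exception: it was 2.30 higher on the log2 scale with nilotinib without hemin (SE 0.17) and 0.78 lower with hemin in nilotinib-treated cells. DNAJB5 fell by 3.47 with nilotinib without hemin and by 3.43 with it, and DNAJA4, at 0.849 CPM in mock DMSO, rose by 1.76 with nilotinib alone. With nilotinib without hemin 2 of the list were higher and 5 lower (median -0.35), and with hemin in nilotinib-treated cells 5 were higher and 1 lower (median 0.55), among them DNAJB1 (3.04), DNAJB4 (2.42) and DNAJA1 (1.30).

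Of 10 exchange factors and adaptors, 7 rose with hemin alone (median 0.89) and 7 fell and 1 rose with nilotinib under hemin (median -0.85). BAG3, the stress-induced exchange factor, rose from 42.4 to 1524 CPM (log2 5.17, SE 0.31) and stood at 102 CPM in hemin nilotinib (log2 -3.90, SE 0.30). STIP1, which hands clients from HSP70 to HSP90, rose by 3.23 (SE 0.25) and fell by 2.24 with nilotinib under hemin, and HIKESHI, which carries HSP70 into the nucleus, rose by 2.03 and fell by 1.55. ST13, a cochaperone that slows release of clients, rose by 1.43 with hemin and by 0.62 with nilotinib alone. HSPBP1, an exchange factor, was 0.24 higher with hemin (edgeR adjusted p = 0.324) and fell by 1.43 with nilotinib without hemin and 1.40 with it. STUB1, the ubiquitin ligase that marks HSP70 clients for degradation, was not called in the 4 comparisons of 1 agent, with log2 differences of -0.30 to -0.15, but was lower with both agents than in mock DMSO (log2 -0.46, edgeR adjusted p = 0.0155). With nilotinib without hemin 1 gene was higher and 3 lower (median -0.15), a share near the 42.5% of all genes called there. With hemin in nilotinib-treated cells 4 were higher (median 0.36), STIP1 (1.66), BAG3 (1.31), BAG2 (0.71) and BAG1 (0.62).

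Of 15 tested heat-shock factors and common targets outside the HSP70s, 13 were higher and 2 lower with hemin without nilotinib (median 2.78), and 2 were higher and 13 lower with nilotinib under hemin (median -2.26), 2 comparisons that share hemin DMSO. The 2 exceptions were factors, HSF1 and HSF4. HSF1, the factor that switches on the inducible members, stood at 120 to 138 CPM in mock DMSO and 61.3 to 85.4 CPM in hemin DMSO (log2 -0.82, SE 0.14), and at 203 to 268 CPM in mock nilotinib and 176 to 181 CPM in hemin nilotinib. It was thus higher with nilotinib both without hemin (log2 0.90, SE 0.14) and with it (1.29, SE 0.14), while HSPA1A was lower under hemin. HSF4 rose by 1.85 with nilotinib alone, and HSF2 rose by 1.02 with hemin and fell by 0.64 with nilotinib under hemin. Among the targets, CRYAB, a small heat-shock protein, rose by 7.90 (SE 0.59), HSPB1, another, by 5.67 (SE 0.34) and SERPINH1, a collagen chaperone, by 4.37 (SE 0.38) with hemin, and the values of these 3 with nilotinib under hemin were -5.38, -3.65 and -3.85. With nilotinib without hemin 2 were higher and 6 lower (median -0.37), FKBP4 by -1.38 and HSPD1 by -1.15. With hemin in nilotinib-treated cells 10 were higher (median 1.15), CRYAB by 2.36, HSP90AA1 by 2.26 and CHORDC1 by 1.95. Among these 10, the libraries of CRYAB and SERPINH1 overlapped between the groups (edgeR adjusted p = 0.0196 and 0.0456).

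Of 8 partners of HSPA9 in mitochondria, 2 were higher and 2 lower with hemin without nilotinib. That share was near the 53.6% of all genes called there. HSCB, a J-domain partner of HSPA9 in iron-sulfur cluster assembly, was higher by 0.64, and the exchange factor GRPEL2 by 0.59. PAM16 (-1.06) and DNAJA3 (-0.71) were lower. In nilotinib-treated cells none was called with hemin. There GRPEL1 differed by 0.37 (edgeR adjusted p = 0.193), and 2 of the 8, GRPEL1 and GRPEL2, had an unadjusted p under 0.05. With nilotinib without hemin 5 of 8 fell, the direction of HSPA9, and none rose (median -0.97), where 21.8% of all genes were lower and 20.7% higher. TIMM44, which holds HSPA9 at the import channel, fell by 1.36, GRPEL2 by 1.15, DNAJA3 by 1.05, GRPEL1 by 0.96 and HSCB by 0.95. With nilotinib under hemin 6 were lower and PAM16 was higher by 1.43 (median of the list -0.70), where 31.8% of all genes were lower and 32.4% higher. HSCB stood at -1.69, GRPEL2 at -1.14 and GRPEL1 at -0.83.

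Of 7 other HSP70 relatives, 3 were higher and 1 lower with hemin without nilotinib (median 0.72), a share near the 53.6% of all genes called there. With nilotinib without hemin 5 were lower and none higher (median -1.62), where 21.8% of all genes were lower. HSPA5, the HSP70 of the endoplasmic reticulum, rose by 2.42 (SE 0.27) with hemin and fell by 2.34 (SE 0.27) with nilotinib alone and by 3.72 (SE 0.28) with nilotinib under hemin. HYOU1, its HSP110 partner, fell by 2.17 with nilotinib alone, the size of the HSPA9 change. HSPA14, a ribosome-associated HSP70 counted here in its protein-coding entry, rose by 1.28 with hemin, whereas HSPA12B, at 1.76 CPM in mock DMSO, fell by 3.15. With nilotinib under hemin 5 were lower and 1 higher (median -2.05), HSPA7 by -4.52 and HSPA12B by 2.36, and with hemin in nilotinib-treated cells 2 were higher (median 0.30), HSPA5 by 1.03 and HSPA13 by 0.74.

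All 8 genes of a hemin-response list, also chosen with earlier results known, were higher with hemin without nilotinib (median 2.52), where 25.7% of all genes were. In nilotinib-treated cells 7 of 8 were higher with hemin (median 1.88), where 3.52% of all genes were. Hemin and additional time in culture or in nilotinib may not be told apart here either. HMOX1, the heme-degrading enzyme, had 3, 5 and 7 reads in mock DMSO, 1035, 2254 and 1624 in hemin DMSO, at most 2 in any mock nilotinib library and 14, 69 and 94 in hemin nilotinib. NQO1, a quinone reductase, rose by 3.88 without and 4.10 with nilotinib, FTL, the ferritin light chain, by 2.68 and 2.10, and TXNRD1, thioredoxin reductase, by 3.24 and 1.86. The interaction was called for TXNRD1 (log2 -1.39, edgeR adjusted p = 0.00373) but not for FTL (-0.58, adjusted p = 0.178) or NQO1 (0.22, adjusted p = 0.623), and no fold with nilotinib is given for HMOX1, whose mock nilotinib libraries are too low. Under hemin 6 of the 8 were lower with nilotinib and none higher (median -1.11), HMOX1 by -4.99 (SE 0.44), NQO1 by -2.24 and TXNRD1 by -1.83, and without hemin 1 was lower, NQO1 by -2.46, and 1 higher, FTH1, the ferritin heavy chain, by 0.57 (median -0.34).

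The interaction was called with a more negative effect of nilotinib under hemin for 7 of 10 J-domain genes, for 13 of 15 heat-shock factors and targets, for 4 of 10 exchange factors and adaptors (1 was more positive), for 2 of 7 other relatives (1 was more positive) and for 2 of 8 hemin-response genes. Among the mitochondrial partners 2 of 8 were more positive and none more negative. Over all genes 17.1% were called more positive and 13% more negative, and counts of 1 or 2 genes in these short lists are too few to set apart from that share. DNAJB1, at -3.31, was close in size to HSPA1A.

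**Figure D5:**
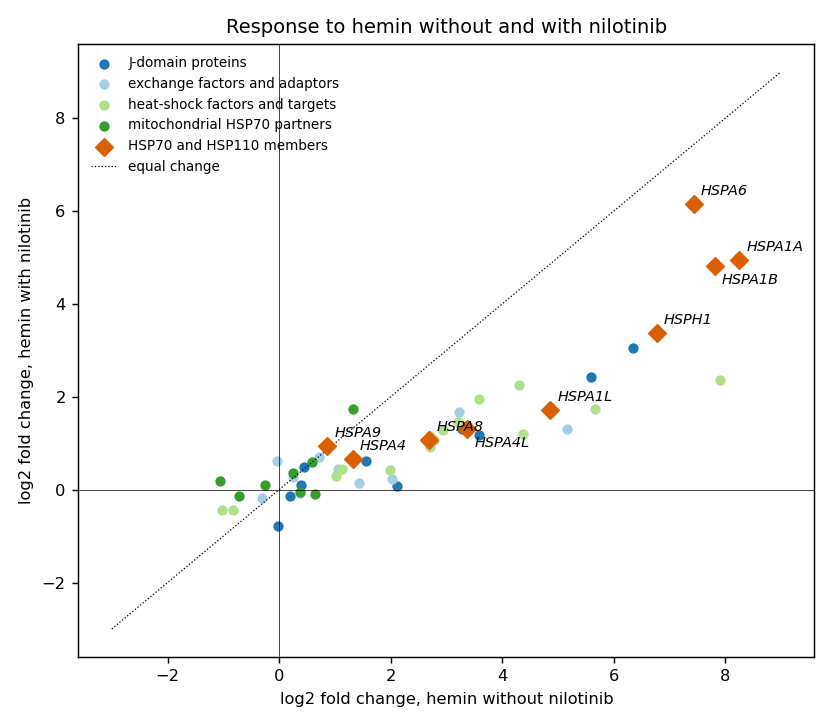
Log2 fold change with hemin without nilotinib (horizontal axis) against that with nilotinib (vertical axis) for 9 members (diamonds) and the tested genes of 4 partner lists (circles), with a dotted line where both are equal. All members but HSPA9 lie below the line (0.87 and 0.94 for HSPA9, 8.26 and 4.95 for HSPA1A), and the mitochondrial partners lie near the origin.

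Over the 12 libraries, the gene outside the family whose log2 level was most like that of HSPA1A was CHORDC1 (Pearson r = 0.994 among 9443 genes with at least 10 CPM on average), followed by DNAJB1 (0.992) and ZFAND2A (0.991). HSPH1 was most like HSP90AA1 (0.996), CHORDC1 (0.996) and AP000648.3 (0.994), and HSPA8 was most like DNAJA1 (0.990), HSPB1 (0.986) and PSMC2 (0.985). HSPA9 had other neighbours, FGFRL1 (0.985), ATP2A2 (0.984) and TMED2 (0.983). TMED2 stood at 197 ± 14.0 CPM in mock DMSO, 72.4 ± 2.95 in mock nilotinib, 329 ± 17.3 in hemin DMSO and 99.4 ± 12.3 in hemin nilotinib (SD, n = 3). These points are the same 12 libraries in 4 groups, so the values describe a shared group pattern and carry no test.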

How the data were processed

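The authors had RNA of K562 cells sequenced as 150-base read pairs, 3 biological replicates in each of 4 groups. They deposited raw counts of reads per gene, whole numbers without normalization, and FPKM per gene and library, in which the count per kilobase of listed length is divided by a constant of each library. Their condition means of FPKM were left out. GRCh38.p12 and DESeq2 appear in the submitters' processing notes, the gene entries are those of GENCODE 29, and the aligner, the counter and its strand setting are not given in the sources used here.

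The test was edgeR's quasi-likelihood F test (edgeR 4.0.16 in R 4.3.3) on the counts. It followed filterByExpr with a minimum count of 10 and a minimum total of 15, used TMM scaling, and had 1 mean for every group in a single fit to the 12 libraries. Its p are two-sided and Benjamini-Hochberg adjusted over the 20821 genes tested, with a threshold of 0.05. An exact permutation test of 3 against 3 libraries cannot go below p = 0.1, so none was run. CPM use TMM-scaled totals, and levels were compared between genes only per kilobase of listed length. Standard errors are the log2 fold change divided by the square root of F, and intervals are at 95%. The p-values rest on 1 spread per gene, estimated over all 12 libraries and moderated across genes, and not on the spread of the compared groups alone. Standard errors and intervals of every comparison therefore draw on all 4 groups. For HSPA1A the 3 libraries differed 1.05-fold in mock DMSO and 1.13-fold in hemin DMSO, but 20.45-fold in hemin nilotinib. Counting intervals were not used.

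The members and lists were chosen with earlier results of these data known. All members are named. Of each list, the text names the 3 genes with the largest change among those called in any comparison of 1 agent, and the genes with a known role in the HSP70 cycle. BAG1 was named after its values were seen. Likeness used genes of at least 10 CPM. The alternatives tried were DESeq2 1.42.0, RLE factors, library totals only, every gene with at least 1 count, a minimum of 10 counts in all libraries, limma 3.58.1 on log2(FPKM + 1) or log2(FPKM + 0.1), a fit to only the libraries compared, a block for the replicate number, a sum of HSPA1A and HSPA1B, and the removal of each library. Replicate numbers were read from the labels. Libraries with the same number deviated together from their group means, with every correlation over 0.1, only for mock nilotinib and hemin nilotinib (r = 0.263, 0.199 and 0.254). These groups were read as paired on that cut, though the labels state no pairing, and the main fit did not use the number. No 2 replicates agreed within sampling noise. The procedures were tested on simulated data. Annotation and figures used Python 3.11.15 with numpy 2.4.6, biopython 1.88 and matplotlib 3.10.9.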

Additional observations from a re-analysis of the deposited data

Results flagged for a closer look

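The effect of nilotinib on 7 members differed between cells with and without hemin by the interaction term of the edgeR fit, which is what marked them for a closer look. The effect with hemin minus the effect without was -3.302 for HSPA1A, -2.99 for HSPA1B, -3.146 for HSPA1L, -0.656 for HSPA4, -2.067 for HSPA4L, -1.615 for HSPA8 and -3.399 for HSPH1 on the log2 scale. In hemin nilotinib the 3 libraries differed 20.4-fold in HSPA1A, and the share of counts on mitochondrially encoded genes was 8.83%, 7.03% and 5.20% in the same libraries. The part of that share in the differences was not tested.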

How the results depend on the processing

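Of 723 gene values recomputed under alternatives other than leaving out a library, 695 kept their direction and their side of the threshold, and of 480 recomputed with 1 library left out, 454 did. No called value changed sign. The members called with nilotinib under hemin, with hemin without nilotinib and with nilotinib alone against hemin alone kept their calls wherever they could be fitted. With hemin in nilotinib-treated cells, 9 members were called in the main fit and 4 with the 6 libraries of the comparison alone. Leaving out 1 library gave 4 to 9. The reason for the lost calls was not tested. With nilotinib without hemin, 4 were called, but 2 when at least 10 counts were required in every library, which removes HSPA6, and 2 by limma on log2(FPKM + 1), and 3 whichever of the 6 libraries was left out. HSPA1L was called there with the libraries of the comparison alone (log2 0.56, adjusted p = 0.021), and HSPA6 was called in the interaction by limma on log2(FPKM + 1) (-4.57), where the pseudocount exceeds its low levels. With the replicate number as a block over the 12 libraries 9 members were called with hemin in nilotinib-treated cells and no call changed. With the block in the libraries of the comparison alone 7 were called there. In the same setting 5 were called with nilotinib without hemin, where deviations correlated at 0.087 to 0.099, below the cut of 0.1. Library totals alone moved the median of all genes with hemin without nilotinib from -0.047 to -0.286, and DESeq2 to 0.128, and relative to these every member kept its direction in that comparison. Counts of 8 to 13 reads limit HSPA6 in mock nilotinib, and HSPA2 was too low for a fold.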
